A study of Mus musculus with 12 samples.

Results

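Kit ligand, the platelet-derived growth factors and CSF1 signal through a related group of receptor tyrosine kinases, and LIF and CLCF1 signal through receptors that share the gp130 subunit. The 10 genes described here are the ligands Kitl, Pdgfa, Pdgfb, Csf1, Lif and Clcf1 and the receptors Kit, Pdgfra, Pdgfrb and Csf1r. They were measured in TM3 cells, a mouse Leydig cell line, treated with methoxyacetic acid (MAA), a metabolite of an industrial solvent that is toxic to the testis. They were chosen by name from 15973 genes with a symbol on the array and have 16 of its 41174 probes. For 9 of them the probes were found through the RefSeq accession that the array files give for each spot. The accession of the 3 Csf1r probes is not in the RefSeq table used here and was named from the study's own probe annotation, which lists responding genes and gives 2 of the 3.

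Cultures had been kept for 3, 8 or 24 h in medium to which MAA was added at 1 mM or 5 mM, or in medium alone as control. RNA of MAA-treated cells was hybridized together with RNA of control cells of the same time, on 2 arrays for each of the 6 conditions, and each RNA was a pool of 3 cultures. The dyes were exchanged within each pair of arrays, so that replicate 1 carried the treated RNA in green and replicate 2 carried it in red. The 5 mM and 1 mM ratios of a time were both taken against control cells of that time. All samples were of 1 cell line, and the p-values measure the spread between these arrays of pooled RNA.

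Kit ligand is made in the testis by somatic cells and acts on cells that carry the receptor KIT, which include germ cells and Leydig cells. PDGF-A and PDGF-B are secreted as dimers that bind PDGFRA and PDGFRB, and PDGFRA is carried by precursors of Leydig cells. CSF1 acts through CSF1R, the receptor on which macrophages depend. CLCF1 acts through the receptor for ciliary neurotrophic factor.

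Values are log2 ratios of MAA-treated over control cells. A probe was called higher or lower where its unadjusted limma p was under 0.005 and its change exceeded 2-fold (5 mM) or 1.5-fold (1 mM). Adjusted p-values follow Benjamini and Hochberg and cover every probe tested. Of the 16 probes, 14 had a channel well above background on all 12 arrays, and no member probe was saturated. Between 61.5% and 70.4% of all probes were well above background in a channel of an array. The Leydig cell markers Star, Cyp17a1 and Insl3 were above background in the control channel of all 12 arrays, whereas Cyp11a1, Hsd3b1 and Lhcgr were above it in none.

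**Figure D1:**
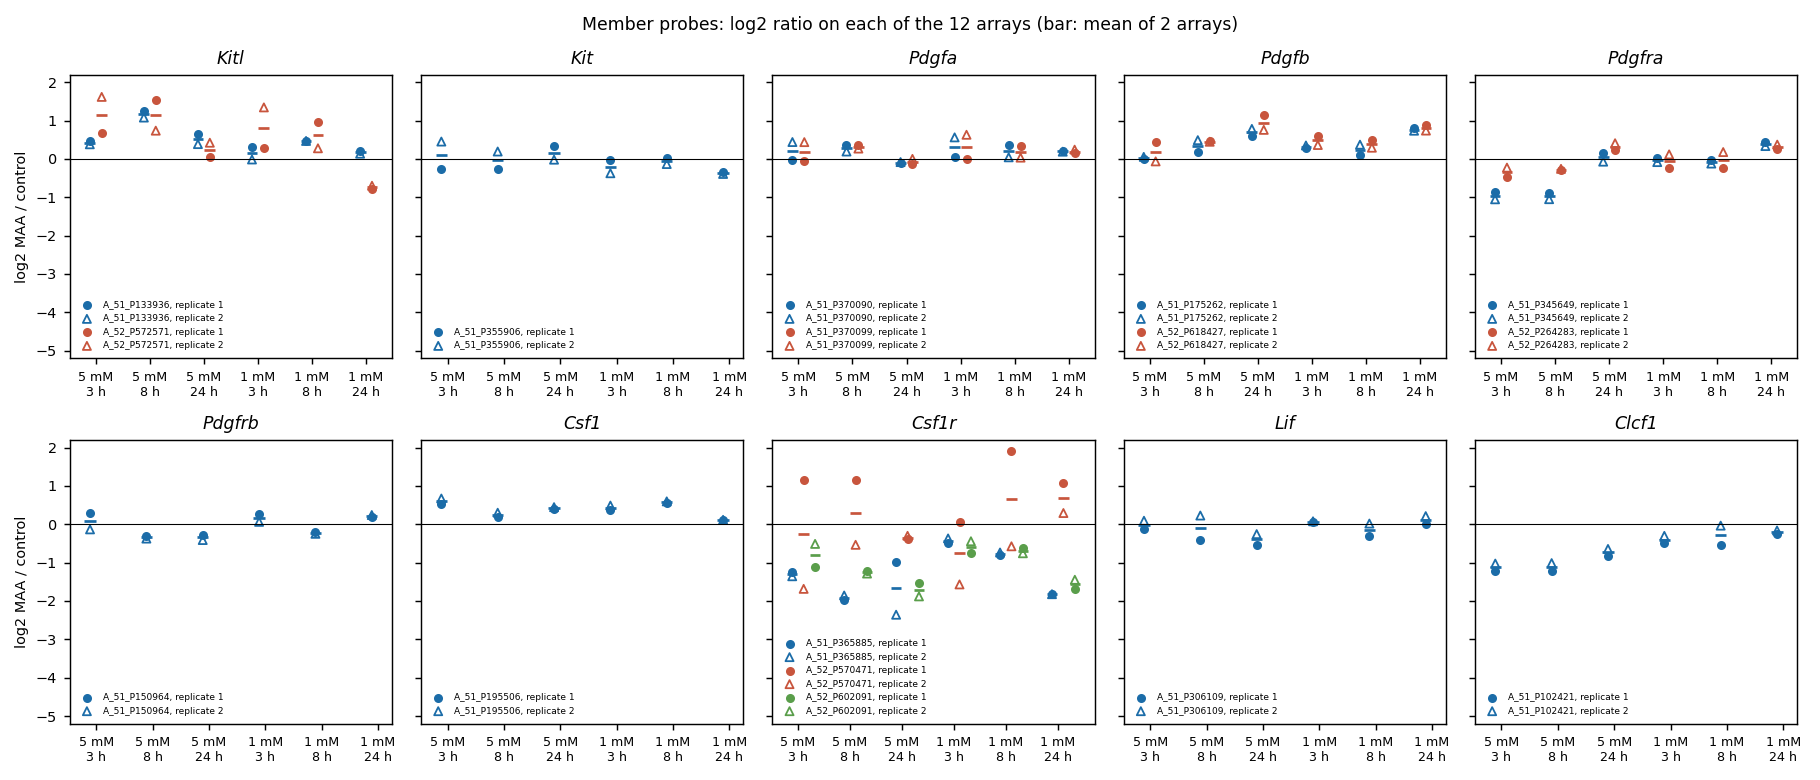
Log2 ratio of MAA-treated over control cells (vertical axis) for the 16 member probes in the 6 conditions (horizontal axis). Circles are replicate 1, triangles replicate 2 and short bars the mean of the 2 arrays, and the values of Kit and of Csf1r probe A_52_P570471 are near or below background. Csf1r probes A_51_P365885 and A_52_P602091 and the Clcf1 probe lie below 0 on every array.

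Sequences are given for the one probe of Clcf1, whose values all come from a single spot per array, and for the promoter of Csf1, a ligand gene whose upstream window lies outside its annotated gene. The Clcf1 probe is 60 bases long and is shown as the study's probe annotation gives it.
Clcf1 probe A_51_P102421: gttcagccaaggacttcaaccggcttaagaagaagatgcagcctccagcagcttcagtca
The RefSeq promoter window of Csf1 is the 250 bases before the start, on the minus strand at chr3:107760470-107760719 of GRCm38.p6. Capitals mark GGGCGG, the core of a GC box, which was searched on both strands.
Csf1 promoter: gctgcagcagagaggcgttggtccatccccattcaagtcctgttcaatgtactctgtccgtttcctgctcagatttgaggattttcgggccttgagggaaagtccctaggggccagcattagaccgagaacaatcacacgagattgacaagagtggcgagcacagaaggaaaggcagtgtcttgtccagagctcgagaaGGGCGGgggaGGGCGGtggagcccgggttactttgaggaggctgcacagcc
The Csf1 window held 2 such matches, the Kit window 1 and the Lif window 0. The motif occurred in 32.7% of all 32851 promoter windows of this length. A longer motif bound by EGR factors, GCGGGGGCG or GCGTGGGCG on either strand, was in none of the 3 windows and in 3.06% of all windows. The annotation table places Csf1 on chromosome 3 (107741048 to 107760469), Kitl on chromosome 10 (100015615 to 100100416) and Clcf1 on chromosome 19 (4214238 to 4223505). Pdgfra and Kit both lie on chromosome 5.

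Csf1r was the member called in the most conditions. It was lower in MAA-treated cells at all 3 times of 5 mM and at 8 and 24 h of 1 mM, by one or both of the probes that were above background in control cells. For probe A_51_P365885 the log2 ratio was -1.24 and -1.36 on the arrays of 5 mM at 3 h, -1.98 and -1.86 at 8 h, and -0.98 and -2.36 at 24 h. At 1 mM the arrays gave -0.50 and -0.37 at 3 h, -0.81 and -0.74 at 8 h, and -1.83 and -1.82 at 24 h. Both arrays of every condition were thus below 0, and the pair was farthest apart at 5 mM 24 h.

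The mean of this Csf1r probe at 5 mM was -1.30 ± 0.26 (SE, n = 2) at 3 h, -1.92 ± 0.26 at 8 h and -1.67 ± 0.26 at 24 h, with limma adjusted p of 0.00848, 0.00104 and 0.00219. At 1 mM 24 h it was -1.83 ± 0.26, a 3.55-fold decrease with a limma adjusted p of 0.00555, whereas -0.44 at 3 h and -0.77 at 8 h did not pass the test. The call at 5 mM 3 h missed the p threshold without replicate 1 of that condition (-1.36), without replicate 2 (-1.24) and in a fit of the 5 mM arrays alone (-1.30). Without replicate 2 at 5 mM 24 h the value there was -0.98, short of 2-fold.

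The other Csf1r probe above background in control cells, A_52_P602091, gave -1.11 and -0.51 at 5 mM 3 h, -1.21 and -1.29 at 8 h, and -1.53 and -1.88 at 24 h. At 1 mM it gave -0.74 and -0.44 at 3 h, -0.62 and -0.76 at 8 h, and -1.69 and -1.45 at 24 h. It was dim, with control signals between 15.0 and 58.2, and its MAA channel was above background on 7 of the 12 arrays. At 5 mM 24 h neither MAA channel was above background, so the probe was at least 2.97-fold lower (limma adjusted p = 0.000188). At 5 mM 3 h, where again neither was, it was at least 1.68-fold lower and not called. It was called lower at 5 mM 8 h (-1.25 ± 0.16), at 1 mM 8 h (-0.69 ± 0.16, limma adjusted p = 0.0475) and at 1 mM 24 h (-1.57 ± 0.16). The call at 1 mM 8 h missed the p threshold without replicate 1 or replicate 2 of 1 mM 8 h (-0.76 and -0.62), with arrays centred on their median (-0.67), and without either array of 5 mM 8 h, where the value remained -0.69.

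With normexp background correction and loess, which adds 50 to each channel, the values of this dim probe shrank to -0.43, -0.37, -0.28 and -0.22 at the 4 conditions where it had been called, and no call was left. Probe A_51_P365885 lost its call at 5 mM 3 h under it (-0.72) and kept the others. The third Csf1r probe, A_52_P570471, was above background in 1 MAA channel and no control channel, and its pairs of arrays lay on opposite sides of 0 in 4 of the 6 conditions, so no fold is given for it.

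For Csf1r probe A_52_P602091 the contrast of 24 h with 3 h at 5 mM lies between 2 bounds, so no difference is given for it. By probe A_51_P365885 the difference between 24 h and 3 h at 5 mM was -0.37 (95% interval -1.22 to 0.48) and did not pass, and at 1 mM it was -1.39 (95% interval -2.25 to -0.54, limma adjusted p = 0.113). Differences between the concentrations did not pass by either probe. The widest, for A_51_P365885 at 8 h, was -1.15 (95% interval -2.00 to -0.29, adjusted p = 0.1).

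Among markers of macrophages, which depend on Csf1r, 5 of the 9 measured genes were not above background in any control channel, Ptprc, Itgam and Adgre1 among them. Cd14 and Lyz2 were above it in all. The summed scaled level of the macrophage markers was between 640 and 662 in the MAA channels and 1159 and 1235 in the control channels at 5 mM 8 h, and between 3068 and 3131 against 2368 and 2464 at 1 mM 24 h. The log2 ratio of the sums was -0.55, -0.88 and -0.68 at 3, 8 and 24 h of 5 mM. At 1 mM it was -0.07, -0.13 and 0.36. Bright probes weigh most in such a sum of unlogged levels. The median log2 ratio of the 14 probes was -0.03 at 5 mM 8 h and 0.36 at 1 mM 24 h. Over all probes it was -0.04 and -0.07. Cd14 fell at 5 mM 8 h (-1.50 ± 0.07) and 24 h (-1.64 ± 0.07), whereas Mrc1 rose at 5 mM 8 h (1.10 ± 0.16) and 24 h (2.45 ± 0.16). Probe A_51_P251768 of Adgre1 rose at 24 h of both concentrations, from controls below background. The other Adgre1 probe, A_52_P364727, was not called there (0.17 at 5 mM and 0.41 at 1 mM), with both channels below background. Probe A_52_P2754 of Aif1 was called higher at 5 mM 8 h with both channels below background, and Aif1 probe A_51_P400543 was not called there (0.53). Of the 14 probes of the list, 2 were called higher and 1 lower at 5 mM 8 h and again at 24 h. Of all probes, 3.06% were called higher and 2.49% lower at 5 mM 8 h, and 3.85% and 1.77% at 24 h. At 1 mM 24 h 3 probes of 2 genes were called higher and 0 lower, against 3.26% and 1.41% of all probes. The part of such cells in the Csf1r result was not tested. In RNA of whole cultures, fewer cells of a type and less RNA per cell cannot be told apart.

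Csf1, the ligand, was not called in any condition, with a highest ratio of 1.51-fold at 5 mM 3 h. Its probe A_51_P195506, present in 10 spots per array, gave 0.53 and 0.67 at 5 mM 3 h, 0.20 and 0.30 at 8 h, and 0.41 and 0.44 at 24 h. At 1 mM the arrays gave 0.36 and 0.49 at 3 h, 0.57 and 0.60 at 8 h, and 0.10 and 0.11 at 24 h. All 12 arrays were above 0. The unadjusted p was under 0.005 in 5 of the 6 conditions, and the mean at 1 mM 8 h, 0.58 ± 0.06 with a limma adjusted p of 0.0044, was 1.495-fold and so just short of the 1.5-fold threshold. It passed that threshold when arrays were centred on their median (0.60) and without replicate 1 of 1 mM 8 h (0.60).

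Kit ligand rose 2.24-fold at 5 mM 8 h. Probe A_51_P133936, with 10 spots per array and control signals between 3824 and 12836, gave 0.46 and 0.38 at 5 mM 3 h, 1.25 and 1.08 at 8 h, and 0.64 and 0.39 at 24 h. At 1 mM the arrays gave 0.30 and -0.01 at 3 h, 0.48 and 0.47 at 8 h, and 0.20 and 0.14 at 24 h. At 5 mM the pair of arrays at 8 h lay above both other pairs. The mean at 5 mM 8 h was 1.16 ± 0.10 (SE, n = 2, limma adjusted p = 0.000106), and this call was kept under all 21 alternatives, with values from 1.08 to 1.25.

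By probe A_51_P133936 the increase of Kitl at 5 mM was larger at 8 h than at 3 h by 0.74 (95% interval 0.42 to 1.06, limma adjusted p = 0.0267). It was smaller at 24 h than at 8 h (difference -0.65, 95% interval -0.96 to -0.33, limma adjusted p = 0.0279). At 8 h the 5 mM value exceeded the 1 mM value by 0.69 (95% interval 0.37 to 1.01, limma adjusted p = 0.0207). The first 2 differences passed in 4 of 12 fits without 1 array each, and the third in 8 of 12, with adjusted p up to 0.134, 0.161 and 0.12. None of the 3 passed with arrays centred on their median.

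A second Kitl probe, A_52_P572571, was not called in the main fit. It became called at 5 mM 8 h with normexp and loess (1.03) and at 5 mM 3 h with the slide as a block (1.36). With adjusted p as the call it was called at both times. Its arrays gave 0.67 and 1.62 at 5 mM 3 h, 1.54 and 0.74 at 8 h, and 0.05 and 0.42 at 24 h. They gave -0.79 and -0.70 at 1 mM 24 h, where the first probe was above 0. Its SE was 0.33 against 0.10 for the first probe, and its means of 1.14 at 5 mM 3 h and 1.14 at 8 h were over 2-fold but missed the p threshold of a call (limma adjusted p = 0.0436 and 0.0361). By the second probe the 5 mM difference was -0.003 (95% interval -1.11 to 1.10) for 8 h against 3 h. It was -0.90 (95% interval -2.01 to 0.20) for 24 h against 8 h. That of 5 mM from 1 mM at 8 h was 0.52 (95% interval -0.58 to 1.63), and none of these passed. On channels put on one scale, the control level of the first probe was 12.34 ± 0.12 (log2, SD, n = 4) at 3 h, 12.14 ± 0.09 at 8 h and 13.38 ± 0.13 at 24 h. Its levels at 5 mM 8 h were 13.31 and 13.28, near the 24 h control level. Here and below, n = 4 counts control channels, and whether these came from separate pools of control cells was not established.

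Kit, the receptor of Kit ligand, was not above background in either channel on any array, by a probe with 10 spots. No fold is given for it, and at this signal a change was not detectable. Among markers of mast cells, which carry KIT, Hdc and Ms4a2 were above background in the control channel of all 12 arrays and Cma1, Cpa3 and Tpsb2 in none. Sox9 and Wt1, 2 of 6 Sertoli cell markers, and Ddx4, 1 of 5 germ cell markers, were above it in all 12 by at least 1 probe. Cldn11 of Sertoli cells, Dppa3 of germ cells and Cdh5, Kdr and Pecam1, 3 of 5 endothelial cell markers, were above it in none.

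**Figure D2:**
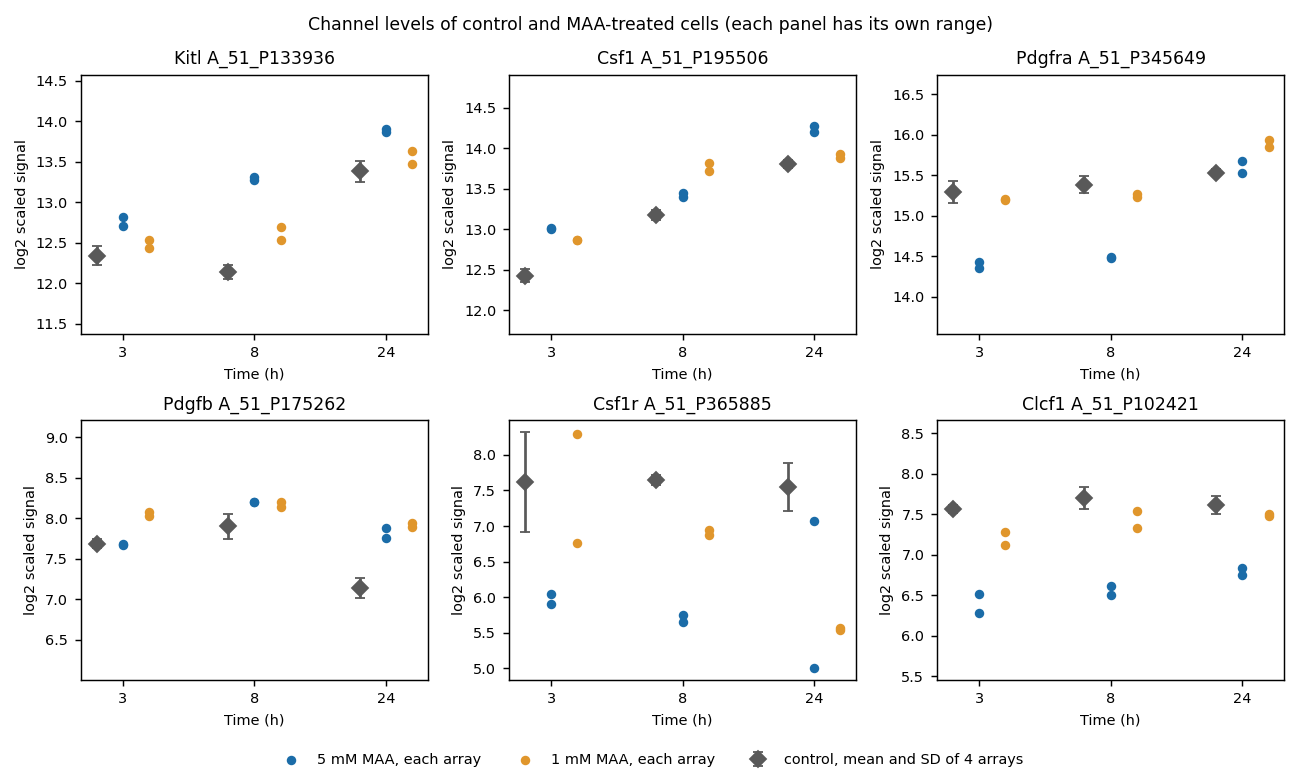
Log2 signal of single channels put on one scale (vertical axis, range set per panel) against time in hours (3 equally spaced times), for 1 probe of 6 members. Diamonds with bars are the mean and SD of the 4 control channels and dots are single arrays of 5 mM (blue) or 1 mM (orange) MAA. For Kitl, control cells rose from 12.14 at 8 h to 13.38 at 24 h, and for Pdgfb they fell from 7.90 to 7.14.

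Pdgfra was about 1.9-fold lower after 3 and 8 h at 5 mM, just short of the 2-fold threshold, and its arrays lay on both sides of 0 at 24 h. Probe A_51_P345649, with 10 spots per array, gave -0.86 and -1.05 at 5 mM 3 h, -0.89 and -1.05 at 8 h, and 0.15 and -0.07 at 24 h. At 1 mM the arrays gave 0.01 and -0.08 at 3 h, -0.02 and -0.12 at 8 h, and 0.44 and 0.34 at 24 h. The early 5 mM arrays did not overlap the others. The means at 3 and 8 h were -0.96 ± 0.08 and -0.97 ± 0.08, with limma adjusted p of 0.00021 and 0.00013, and the probe passed the fold threshold at 3 h without replicate 1 of that condition and at 8 h without replicate 1 of that one (-1.05 each).

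The ratio of Pdgfra at 5 mM was higher at 24 h than at 3 h by 1.00 (95% interval 0.72 to 1.27, limma adjusted p = 0.00214) and higher than at 8 h by 1.01 (95% interval 0.73 to 1.29, adjusted p = 0.00397). It was lower at 5 mM than at 1 mM by 0.92 at 3 h (difference -0.92, 95% interval -1.20 to -0.65, limma adjusted p = 0.0127) and by 0.90 at 8 h (difference -0.90, 95% interval -1.18 to -0.62, adjusted p = 0.00521). The difference of 24 h from 3 h passed in all 20 alternatives and that of the concentrations at 8 h in all 19. The difference of the concentrations at 3 h was lost without replicate 2 of 5 mM 3 h and without either array of 1 mM 3 h, with adjusted p up to 0.0804, and with centred arrays. The other Pdgfra probe, A_52_P264283, gave smaller ratios, with means of -0.35 and -0.28 at 5 mM 3 and 8 h and 0.32 at 24 h. Its difference of 24 h from 3 h was 0.67 (95% interval 0.26 to 1.08, limma adjusted p = 0.0409), and it passed in 4 of 12 fits without 1 array, with adjusted p up to 0.188.

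Pdgfb, a ligand of both PDGF receptors, rose at 24 h of 1 mM by both of its probes. Probe A_51_P175262 gave 0.80 and 0.74 there and probe A_52_P618427 gave 0.88 and 0.74, which are means of 0.77 ± 0.10 and 0.81 ± 0.14 with limma adjusted p of 0.00369 and 0.012. At 5 mM 24 h the first gave 0.60 and 0.78 and the second 1.14 and 0.76, short of 2-fold on average (0.69 and 0.95). Their other conditions ranged in mean from 0.03 to 0.48. The call of A_52_P618427 was lost without replicate 1 of 1 mM 24 h (0.74), and both calls were lost with normexp and loess (0.43 and 0.56).

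The 5 mM ratio of Pdgfb was higher at 24 h than at 3 h by 0.66 (95% interval 0.34 to 0.98, limma adjusted p = 0.017) for A_51_P175262 and by 0.76 (95% interval 0.29 to 1.22, adjusted p = 0.041) for A_52_P618427. The first passed in 8 of 12 fits without 1 array, with adjusted p up to 0.105, and the second in 1 of 12, with adjusted p up to 0.208. On one scale the control level of A_51_P175262 was 7.69 ± 0.06 at 3 h, 7.90 ± 0.16 at 8 h and 7.14 ± 0.13 at 24 h (log2, SD, n = 4). Its levels at 5 mM were 7.69 and 7.66 at 3 h and 7.88 and 7.75 at 24 h. The 24 h ratio thus came with a lower control level.

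Pdgfa and Pdgfrb were not called. The probes of Pdgfa, the other PDGF ligand, had means between -0.10 and 0.32, and their unadjusted p was above 0.05 in all 6 conditions. Pdgfrb, the receptor that binds PDGF-B, gave -0.30 and -0.37 at 5 mM 8 h and -0.27 and -0.41 at 24 h, with means of -0.34 ± 0.10 at both times (limma adjusted p = 0.0414 and 0.04), and 0.20 and 0.24 at 1 mM 24 h. The difference of the concentrations at 24 h was -0.56 (95% interval -0.90 to -0.22, limma adjusted p = 0.0579), which did not pass. Of the 8 probes for markers of peritubular myoid cells and pericytes, cells that carry PDGFRB, 3 were called higher at 5 mM 24 h (Acta2, Des and Cspg4). At 1 mM 24 h 4 were, and the shares of all probes called higher were 3.85% and 3.26%. The part of these markers in the PDGF values was not tested. The control level of Pdgfrb on one scale was 11.99 ± 0.13 at 3 h, 12.67 ± 0.03 at 8 h and 13.28 ± 0.03 at 24 h.

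**Figure D3:**
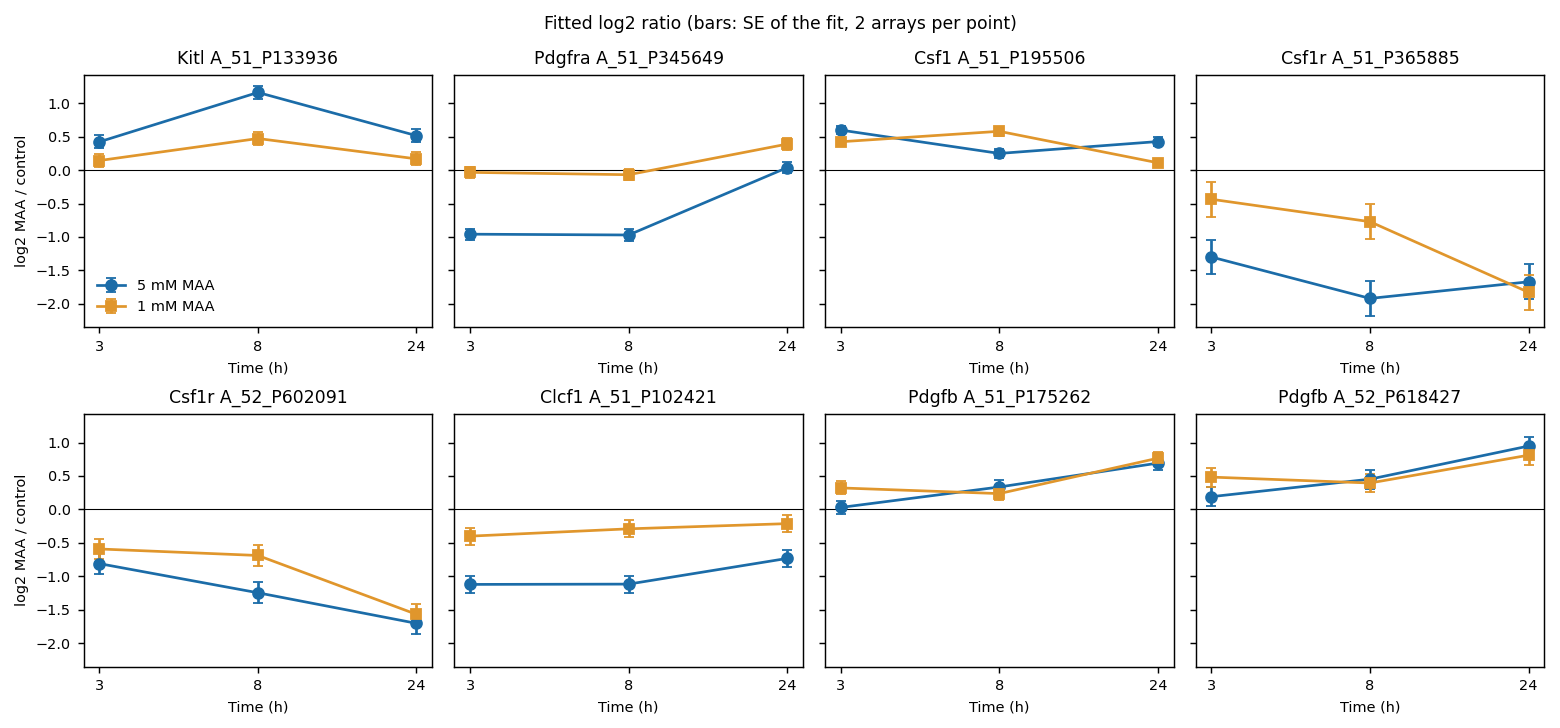
Fitted log2 ratio of MAA-treated over control cells (vertical axis) against time in hours (3 equally spaced times) for 8 member probes at 5 mM (blue circles) and 1 mM (orange squares). Bars are the SE of the fit with 2 arrays per point. The 5 mM and 1 mM values of Pdgfra were -0.96 and -0.03 at 3 h, and those of Csf1r probe A_51_P365885 were -1.67 and -1.83 at 24 h.

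Clcf1 fell at 3 and 8 h of 5 mM. Its probe gave -1.22 and -1.03 at 5 mM 3 h, -1.22 and -1.01 at 8 h, and -0.82 and -0.64 at 24 h. At 1 mM it gave -0.50 and -0.30 at 3 h, -0.54 and -0.04 at 8 h, and -0.26 and -0.16 at 24 h. All 12 arrays were below 0, and the 5 mM arrays lay below the 1 mM arrays at each time. The means at 5 mM 3 and 8 h were -1.12 ± 0.13 and -1.12 ± 0.13, with limma adjusted p of 0.000658 and 0.000466, and the mean at 24 h was -0.73 ± 0.13. Both calls held in every fit without 1 array and were lost with normexp and loess, where the values were -0.72 and -0.78.

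Clcf1 was lower at 5 mM than at 1 mM at 8 h (difference -0.83, 95% interval -1.25 to -0.41, limma adjusted p = 0.0292), which passed in 5 of 12 fits without 1 array, with adjusted p up to 0.154. Lif, a cytokine that signals through the LIF receptor and gp130, was not called. Its means lay between -0.40 and 0.10, and the lowest, at 5 mM 24 h, came from arrays of -0.54 and -0.26.

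By condition, 0 of the 16 member probes were called higher and 2 lower at 5 mM 3 h, where 2.02% and 1.74% of all probes were. At 5 mM 8 h 1 was called higher and 3 lower, against 3.06% and 2.49% of all probes. At 5 mM 24 h 0 were called higher and 2 lower, against 3.85% and 1.77%. At 1 mM 3 h 0 were called higher and 0 lower, against 1.32% and 0.627%. At 1 mM 8 h 0 were called higher and 1 lower, against 1.72% and 0.656%. At 1 mM 24 h 2 were called higher and 2 lower, against 3.26% and 1.41%. The 2 lower at 24 h of either concentration were both Csf1r, and the 2 higher at 1 mM 24 h both Pdgfb. The 3 lower at 5 mM 8 h came from 2 genes. Over all probes the split moved with the scaling, from 832 higher and 715 lower to 1110 and 539 at 5 mM 3 h with centred arrays, and with normexp and loess from 545 and 258 to 59 and 57 at 1 mM 3 h and from 1343 and 582 to 407 and 93 at 1 mM 24 h. Where limma called 0 higher, some member probes were above 0 with an unadjusted p under 0.05. They numbered 3, 5, 4 and 4 at 5 mM 3 h, 5 mM 24 h, 1 mM 3 h and 1 mM 8 h, and 2 were below 0 at 1 mM 3 h. The share of all probes under this p was not counted, so these numbers are not a result about the members. The median of the 16 probes was 0.05, 0.10 and -0.02 at 5 mM and 0.10, 0.08 and 0.18 at 1 mM, beside -0.10, -0.04 and 0.03 and 0.02, 0.02 and -0.07 over all probes.

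Between concentrations, 1 member probe differed at 3 h, 3 at 8 h and 0 at 24 h, where 3.4%, 10.1% and 8.41% of all probes did. At 5 mM 1 member probe differed between 8 and 3 h, 2 between 24 and 8 h and 5 between 24 and 3 h, against 5.1%, 8.91% and 15.8% of all probes. The 5 include the Csf1r contrast between bounds. It passed in 9 of 20 alternatives and was lost with normexp and loess, with the 5 mM arrays alone and in most fits without 1 array. Apart from it, the contrasts that still passed with arrays centred on their median were those of Pdgfra probe A_51_P345649 at 5 mM, 24 h against 3 h and against 8 h, and between concentrations at 8 h. With the 5 mM arrays alone, that of Pdgfra probe A_51_P345649 for 24 h against 3 h still passed and no other time contrast did. At 1 mM 0 differed between 24 and 3 h, against 1.85%. In the comparisons with 0, limma gave 5 and 6 member probes an unadjusted p under 0.05. The share of all probes under it was not counted, so these numbers are not a result about the members.

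Of 10 further genes of the gp130 cytokine family measured by 17 probes, 2 probes were called higher and 1 lower at 5 mM 8 h and 0 higher and 1 lower at 24 h, with none at 3 h. Shares of all probes called higher and lower, beside this and the lists below, were 2.02% and 1.74% at 5 mM 3 h. They were 3.06% and 2.49% at 8 h and 3.85% and 1.77% at 24 h. Lifr, the receptor subunit that binds LIF, rose at 5 mM 8 h (1.06 ± 0.10) and 1 mM 24 h (0.75 ± 0.10). Il6 rose at 5 mM 8 h (1.18 ± 0.11), and Ctf1, another cytokine of the family, fell at 5 mM 8 h (-1.02 ± 0.05) and 24 h (-1.05 ± 0.05).

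**Figure D4:**
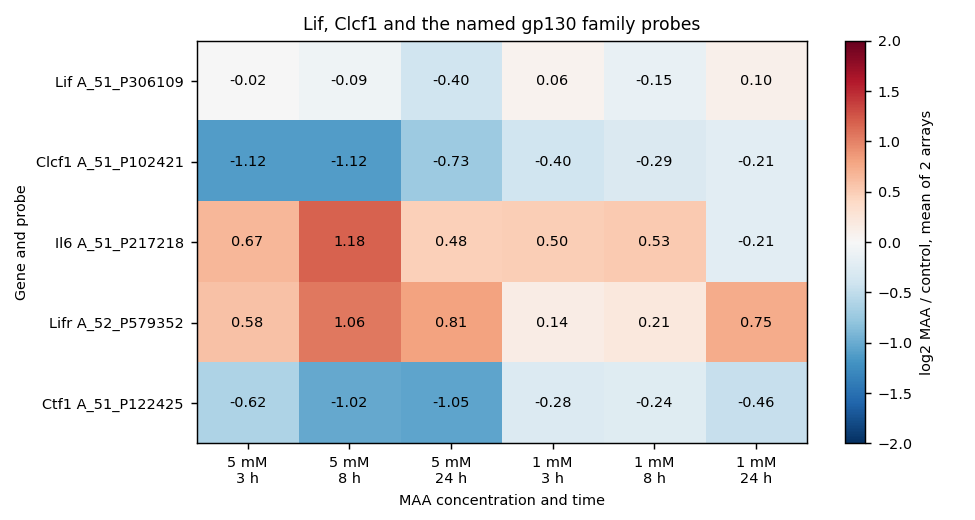
Mean log2 ratio of MAA-treated over control cells on 2 arrays (colour and printed value) for the probes of Lif and Clcf1 and the named probes of the gp130 cytokine family (rows) in the 6 conditions (columns). At 5 mM 8 h Clcf1 and Ctf1 are at -1.12 and -1.02 where Il6 and Lifr are at 1.18 and 1.06.

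Among 6 relatives of the class III receptors and their ligands, Pdgfc, Pdgfd and Il34 among them, none of 7 probes was called in any condition. Of 37 probes for adaptors and enzymes next to these receptors, 0 were called at 5 mM 3 h, 2 higher and 1 lower at 8 h, and 2 higher and 1 lower at 24 h. Pik3cb, a catalytic subunit of phosphoinositide 3-kinase, rose at 5 mM 8 h (1.07 ± 0.06), and Dok2, a docking protein, fell at 24 h (-1.33 ± 0.13). The other calls at 5 mM, outside the rule for named genes, were Grb10 lower at 8 h, Lyn higher at 8 h with control signals below background and at 24 h with both channels below it, and Plcg2 higher at 24 h.

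Of 31 JAK-STAT and SOCS probes, 1 was called higher at 5 mM 3 h, 1 higher at 8 h and 1 lower at 24 h. Socs2, an inhibitor of cytokine signalling, rose at 3 h (1.19 ± 0.11) and 8 h (1.40 ± 0.11) of 5 mM and at 3 h (1.06 ± 0.11) and 8 h (1.10 ± 0.11) of 1 mM. Jak3, a cytokine receptor kinase, fell at 5 mM 24 h (-1.52 ± 0.19). Of 10 probes for proteases that process such ligands, none met the rule for named genes. Mmp9, at -0.99 on one of its arrays, was called lower at 5 mM 24 h (-1.05 ± 0.10) and Plau higher, with both channels below background, and none was called at 3 or 8 h.

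The genes whose probes followed the 12 array ratios of a member most closely were compared for Csf1r and Clcf1, the members called in most conditions, over 15031 probes with a symbol. For Csf1r probe A_51_P365885 they were Aox1 (Pearson r = 0.868), Mov10 (0.847) and Adamts4 (0.837). For Clcf1 they were Scube2 (0.974), Endov (0.973) and Dipk1b (0.973). The points of each correlation share dyes, slides and control cells, and the values are a description. Scube2 had means close to those of Clcf1 (-1.18, -1.07 and -0.56 at 5 mM), whereas the ratios of Dipk1b had the same shape around a higher level (-0.10, 0.01 and 0.09).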

How the data were processed

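RNA of MAA-treated and control TM3 cells was hybridized to 12 two-colour Agilent arrays on 3 slides, 2 arrays with exchanged dyes for each of 6 conditions. The pair of arrays of a condition lay on different slides. The authors had used Agilent Feature Extraction 9.5.3.1 with linear and LOWESS dye normalization, and the deposited scanner output holds background-corrected signal intensities and flags. The authors also deposited rounded log10 ratios of MAA over control, 1 table per array. Their largest difference from the log10 ratio of the scanner output was between 0.005 and 0.095 per array.

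Control spots (1639 of 45018) and outlier spots (124 to 208 per array) were left out and repeated spots averaged, which gave 41174 probes. Log2 ratios of the processed signals were turned to MAA over control and not centred. R 4.3.3 with limma 3.58.1 fitted all 12 arrays with 1 coefficient per condition (lmFit and eBayes, 6 residual and 1.515 prior degrees of freedom). One probe had no value at 5 mM 24 h and was not tested there. Contrasts between times and concentrations were called at a Benjamini-Hochberg adjusted p under 0.05. Aquantile normalization gave the levels of single channels. A fold against a channel not well above background on either array is a lower limit. The number of arrays limits the precision. The fit was run on simulated data with independent errors and planted changes past the fold threshold, which does not test the member calls.

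The files' gene name column holds accessions. RefSeq transcripts (GRCm38.p6) named 22072 probes and left 19099 unnamed, and the 3 probes of Csf1r were named through the study's probe annotation. Promoter sequences are RefSeq's.

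The members and gene lists were chosen with earlier results of these data known. Named beside the members are up to 5 probes per pathway list, called at 5 mM, past the fold on both arrays and above background, with the largest changes, with other calls named as outside this rule, and for the 2 members called in most conditions the 3 genes with the most similar ratios. One gene of a pathway list is not reported here. Cntf, Sos2, Cblb and the markers Cd68 and Tpsab1 matched no probe. Alternatives were normexp (offset 50) with loess, the deposited ratios, centring on the array median, leaving out dim probes, keeping outlier spots, blocks for replicate and slide, adjusted p, the arrays of 1 concentration, and leaving out each array. The study's error model was not run, and qPCR was not analysed here. Python 3.11.15 with matplotlib 3.10.9 drew the figures.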

Additional observations from a re-analysis of the deposited data

Results flagged for a closer look

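Effects of 5 mM MAA on 3 members differed between times by a limma contrast adjusted over all probes. For Kitl probe A_51_P133936 the difference was 0.74 for 8 h against 3 h and -0.65 for 24 h against 8 h. For Pdgfra probe A_51_P345649 it was 1.01 for 24 h against 8 h and 1.00 for 24 h against 3 h, and for probe A_52_P264283 it was 0.67 for 24 h against 3 h. For 24 h against 3 h it was 0.66 for Pdgfb probe A_51_P175262 and 0.76 for Pdgfb probe A_52_P618427. With arrays centred on their median, only the contrasts of Pdgfra probe A_51_P345649 among these still passed. With the 5 mM arrays alone, only that of the same probe for 24 h against 3 h did. Groups held 2 arrays each, so no single array was tested as standing apart.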

How the results depend on the processing

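No value of a member probe that was called, or became called, changed direction under any alternative run. Over all member probes, conditions and alternatives there were 2004 values, of which 19 lost and 16 gained a call. With normexp and loess, the member probes called were 0 at 5 mM 3 h, 1 at 5 mM 24 h, 0 at 1 mM 8 h and 1 at 1 mM 24 h, and those differing were 2 between concentrations at 3 h, 3 at 24 h and 2 between 8 and 3 h at 5 mM. The offset of 50 that it adds draws ratios of dim probes to 0. With the deposited log10 ratios 2 differed between concentrations at 24 h, 2 between 8 and 3 h at 5 mM and 1 between 24 and 3 h at 1 mM. With arrays centred on their median 0 and 1 differed between concentrations at 3 and 8 h, and at 5 mM 0 between 8 and 3 h, 1 between 24 and 8 h and 2 between 24 and 3 h, and the cause was not tested. With dim probes left out, 1 was called at 1 mM 3 h, 2, 5 and 2 differed between concentrations at 3, 8 and 24 h, 2 between 8 and 3 h at 5 mM and 4 between 24 and 3 h at 1 mM.

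The replicate number also marks the dye orientation. Differences between the arrays of a pair correlated between conditions at r from 0.08 to 0.51, median 0.38 (15 pairs of conditions). Over probes well above background in all arrays r ran from 0.04 to 0.77, median 0.52. Not every pair was above 0.1, so the numbers were not taken to pair the samples. What arrays of the same replicate number share thus stays in the spread of the main fit. With the replicate block, 2 and 5 member probes differed between concentrations at 3 and 24 h, 2 between 8 and 3 h and 5 between 24 and 8 h at 5 mM, and 2 between 24 and 3 h at 1 mM, and the other counts stayed within 1.5 times. With the slide as a block, 2 and 4 differed between concentrations at 3 and 24 h, 2 between 8 and 3 h at 5 mM and 1 between 24 and 3 h at 1 mM. With the 5 mM arrays alone 1 was called at 3 h, and 0 differed between 8 and 3 h, 0 between 24 and 8 h and 1 between 24 and 3 h, and with the 1 mM arrays alone 2 were called at 8 h.

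Leaving out each array in turn, with the lone array of that condition assumed to vary like the others, the member probes called were 2 to 2 at 5 mM 3 h, 4 to 5 at 8 h and 2 to 2 at 24 h, and 0 to 1, 0 to 2 and 3 to 4 at 1 mM. Those differing were 0 to 2, 1 to 3 and 0 to 1 between concentrations at 3, 8 and 24 h, 0 to 2 between 8 and 3 h, 1 to 2 between 24 and 8 h and 1 to 4 between 24 and 3 h at 5 mM, and 0 to 1 between 24 and 3 h at 1 mM. Signal over background limits the values of Kit and of Csf1r probes A_52_P570471 and A_52_P602091.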
